A study of Homo sapiens with 19 samples.

Results

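The transcriptomes of HCT116 cells given GSK715 were compared directly with those of HCT116 cells given GSK025. HCT116 is an established human colorectal carcinoma line. The comparison used 6 of the 19 libraries of the study: 3 with GSK715 (GSK3368715, named in the labels as an inhibitor of PRMT1) at 5 µM, and 3 with GSK025 (GSK3235025, named as an inhibitor of PRMT5) at 10 µM. A further 3 HCT116 libraries, from cells given only the DMSO vehicle, entered the same fit and are given beside the results as the level without inhibitor. All 9 libraries came from cells treated for 96 h, and poly(A)-enriched RNA was sequenced as paired ends. The members of the comparison are the 19751 genes that passed a filter on low counts. Compound and dose differ together between the inhibitor groups, so their effects cannot be told apart. The remaining libraries of the study, from the WiDr line, were not used here. The labels do not say whether the 3 replicates of a group came from separate cultures, so each p-value reflects only how much these libraries vary.

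Protein arginine methyltransferases (PRMTs) move methyl groups from S-adenosylmethionine to arginines. PRMT1, the main type I enzyme, leaves 2 methyl groups on the same nitrogen of the arginine side chain (asymmetric dimethylarginine), whereas PRMT5, the main type II enzyme, places them on different nitrogens (symmetric dimethylarginine). Substrates of both include histones and RNA-binding proteins rich in arginine and glycine: many hnRNP proteins are known substrates of PRMT1, and the Sm proteins of the spliceosome are known substrates of PRMT5. When type I enzymes are blocked, arginines left free can become substrates of other PRMTs, and the direct comparison addresses where blocking each branch goes with different RNA levels.

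The 6 inhibitor libraries held 65 to 66.9 M counts and the DMSO libraries 64.6 to 65.8 M. The first principal component, with 44.9% of the variance, and the second, with 37.4%, separated the 3 groups. Mitochondrially encoded genes took 5.09% to 5.42% of the counts with GSK715 and 5.13% to 5.48% with GSK025, against 8.64% to 9.09% with DMSO. As the label of a colorectal line requires, epithelial markers were abundant in sum. Of 13, 12 were measured, at 7140 to 7630 CPM with GSK715, 8430 to 8870 CPM with GSK025 and 5370 to 5510 CPM with DMSO. Most of each sum came from KRT8, KRT18 and KRT19. CDX1 had 0 counts in all with GSK715, 10 with GSK025 and 4 with DMSO. VIL1, among the 12 measured, had only 71 counts in all with GSK715, 57 with GSK025 and 24 with DMSO. Of 16 genes that mark immune, stromal and endothelial cells 10 were measured, and they summed to 107 to 117 CPM with GSK715, 76.6 to 87.1 CPM with GSK025 and 65.3 to 68.3 CPM with DMSO. CD68, chosen after its values were seen, made up most of that sum with GSK715, at 79.7 ± 5.26 CPM with GSK715, 22.7 ± 0.932 CPM with GSK025 and 37.7 ± 2.69 CPM with DMSO, and shares 85.8% of its exonic bases with other genes, whereas the median log2 fold change of the list was -1.85. PTPRC, which marks all leukocytes, had 0 counts in all 9 libraries. In such bulk libraries, fewer cells of a kind and less RNA per cell cannot be told apart.

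With an adjusted p under 0.05, 8746 of the 19751 genes (44.3%) differed between the inhibitors: 4302 genes (21.8%) were higher and 4444 genes (22.5%) lower with GSK715 than with GSK025. At least 2-fold differences were found for 988 genes (5.00%) in the higher direction and for 1144 genes (5.79%) in the lower, and at least 4-fold differences for 307 and 378 genes. The direct comparison called about as many genes as either inhibitor against DMSO, which was 9157 genes (46.4%) for GSK715, 4372 higher (22.1%) and 4785 lower (24.2%), and 8708 genes (44.1%) for GSK025, 4338 higher (22.0%) and 4370 lower (22.1%). All 3 GSK715 libraries lay above all 3 GSK025 libraries for 5145 genes (26.0%) and below them for 5323 (27.0%). Levels are given as CPM, the TMM-scaled counts of a gene per M counts of its library, with the SD of 3 libraries after the ± sign. Differences are log2 fold changes of GSK715 over GSK025 from edgeR's quasi-likelihood test, with an approximate standard error (SE) after the ± sign and Benjamini-Hochberg adjusted p-values over all genes tested. A test against a 1.5-fold difference instead of none called 970 genes higher and 1041 lower. Scaling by library totals alone would shift the median of all genes by -0.09 and leave 39.1% of the calls in the higher direction, against 49.2% with TMM scaling.

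**Figure D1:**
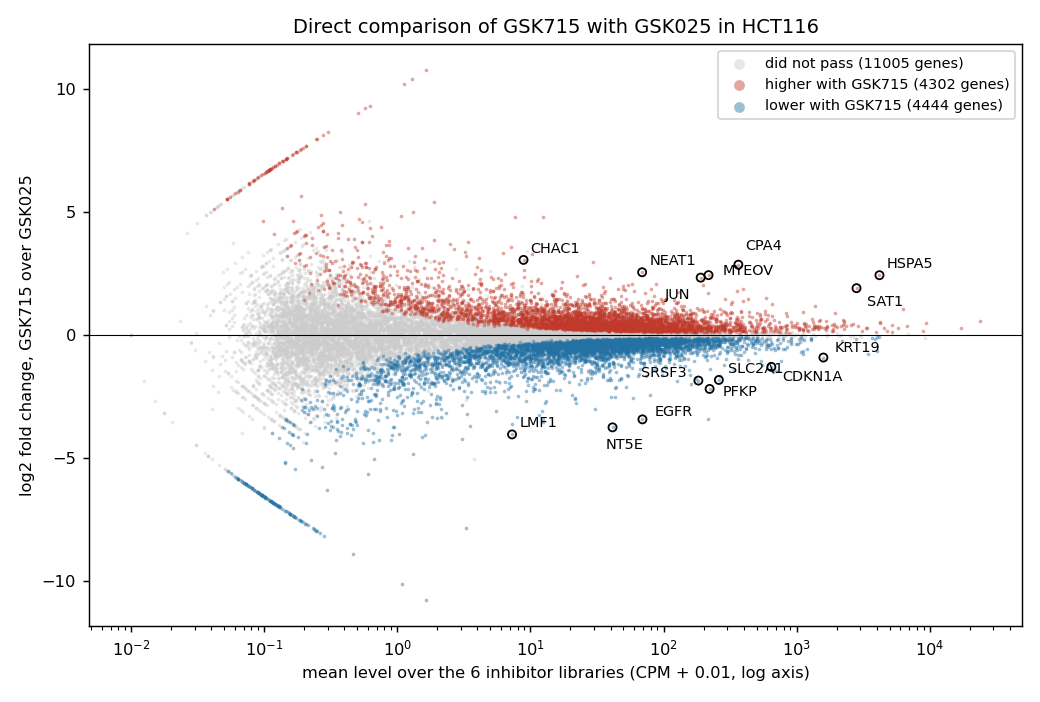
Each point is 1 of the 19751 genes tested, with its mean CPM over the 6 inhibitor libraries plus 0.01 on a log axis (horizontal) and its log2 fold change of GSK715 over GSK025 (vertical). The 4302 genes that were higher with GSK715 are red, the 4444 that were lower are blue and the 11005 that did not pass are grey, and circles mark named genes such as HSPA5 at 2.43 and EGFR at -3.43. The diagonals at the left are genes with 0 counts in 1 inhibitor group, whose fitted values are no measure of size.

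The enzymes themselves were set first, although their inhibitors act on the proteins and not on the transcripts. Of 13 measured genes on the list of the PRMT family and genes grouped with it, 1 was higher, 8 were lower and 4 did not pass. Their median log2 fold change was -0.34 against -0.00 over all genes, of which 21.8% were higher and 22.5% lower. PRMT1 transcripts stood at 331, 319 and 302 CPM with GSK715, against 298, 328 and 309 CPM with GSK025, so the groups overlapped. The difference was 0.03 ± 0.05 (adjusted p = 0.71), with a 95% interval of -0.08 to 0.13, and DMSO libraries held 233, 240.5 and 225 CPM. PRMT5 transcripts stood at 178, 169 and 164 CPM with GSK715, against 256, 268 and 253 CPM with GSK025, a difference of -0.61 ± 0.04 (adjusted p = 1.6e-07). Every GSK715 library was thus below every GSK025 library, and the DMSO level was lower still at 143, 149.6 and 143 CPM. PRMT5 shares 27.1% of its exonic bases with an antisense gene, and the strand of the libraries is not stated, so reads of the 2 genes cannot be told apart. COPRS, a cofactor that recruits PRMT5 to histones, averaged 18.5 ± 2.21 CPM with GSK715, 34.5 ± 3.76 CPM with GSK025 and 19 ± 0.668 CPM with DMSO, and the difference between the inhibitors was -0.90 ± 0.10 (adjusted p = 1.0e-05). PRMT6, a nuclear type I enzyme, was lower with GSK715 by -1.63 ± 0.21 at low levels (2.42 ± 0.487 CPM with GSK715 and 7.52 ± 1.64 CPM with GSK025), and PRMT7, which places only monomethyl groups, by -1.03 ± 0.11 (10.5 ± 0.805 CPM with GSK715 and 21.4 ± 1.92 CPM with GSK025). PRMT9, another type II enzyme, was the member that was higher, at 0.90 ± 0.12, with 12.4 ± 0.783 CPM with GSK715, 6.66 ± 0.325 CPM with GSK025 and 13.1 ± 1.88 CPM with DMSO. CARM1 did not pass (0.11 ± 0.06, adjusted p = 0.15; 19.9% exonic overlap).

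A very abundant transcript with a large difference encoded the main Hsp70 chaperone of the endoplasmic reticulum (ER). HSPA5 (BiP; chr9:125234853-125241330, GRCh38) stood at 7144, 7098 and 6990.0 CPM with GSK715, against 1343, 1319 and 1279 CPM with GSK025. All GSK715 libraries lay more than 5-fold above all GSK025 libraries, and the DMSO libraries, at 2091, 2075 and 2078 CPM, lay between the inhibitors. The log2 fold change was 2.43 ± 0.03 (adjusted p = 2.4e-14), which is 5.39-fold. The ER list as a whole moved with it: of 24 measured ER chaperones and unfolded protein response genes, 20 were higher with GSK715, 1 was lower and 3 did not pass. Of all genes 21.8% were higher, and of genes of at least 5 CPM, grouped by exonic length, 30.9% to 32.4%. The median log2 fold change of the ER list was 0.53. Its summed level was 17100 to 17500 CPM with GSK715, 7080 to 7270 CPM with GSK025 and 9060 to 9120 CPM with DMSO. HERPUD1, a membrane protein of ER-associated degradation, stood at 328, 319.7 and 304 CPM with GSK715, against 75.2, 80 and 80.7 CPM with GSK025 (2.01 ± 0.05, adjusted p = 8.5e-12). The groups did not overlap and DMSO, at 115, 111 and 115 CPM, again lay between them. HSP90B1 (GRP94), the Hsp90 of the ER, stood at 1788, 2004 and 1982 CPM with GSK715, against 855, 827 and 839 CPM with GSK025 (1.20 ± 0.04), with 1526, 1527 and 1566 CPM with DMSO. CRELD2, an ER-resident disulfide-exchange protein, was the exception at 29.4, 29.1 and 27.1 CPM with GSK715, against 41, 41.4 and 47.5 CPM with GSK025 (-0.60 ± 0.07, adjusted p = 1.3e-05), and every GSK715 library was below every GSK025 library. The sensor ERN1 (IRE1) and the ubiquitin ligase SYVN1 (10.1% exonic overlap), named after their values were seen, did not pass, with intervals of -0.16 to 0.16 and -0.20 to 0.15. Against DMSO the median of the list was 0.34 with GSK715 and -0.16 with GSK025.

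ER chaperone genes are known to be switched on through the ER stress response element, here searched as CCAAT, any 9 bases, CCACG on both strands in RefSeq promoter windows (GRCh38.p14) from 250 bases before to 50 bases after each start. It was found in windows of 7 of the 22 ER-list genes with a window (31.8%), of 18 of 12735 tested genes (0.141%) and of 25 of all 27305 genes (0.0916%). Amino acid response genes are known to be switched on by ATF4 through a composite C/EBP-ATF element, searched as TGATGNAA. It was found for 8 of 25 genes of the ATF4 list (32.0%), 356 tested genes (2.80%) and 1217 of all genes (4.46%). Among the 18 genes of the ATF4 list that were higher with GSK715, 5 had it (27.8%), so the higher members did not carry it more often than the list. SLC1A5, which was lower, and SLC7A1 and JDP2, which did not pass, also had it. No printed window holds both elements in the forms searched, and a match is a description of letters, not a bound site. Other forms of ER stress or ATF4 elements were not searched, so a window without a match can still hold one. The windows of 6 named genes are printed 5′ to 3′ on the strand of the gene, since these genes carry the ER and ATF4 results, with the element in capitals. HSPA5 (chr9:125241294-125241593, minus strand) has 1 ER element starting at position -66 from the start. HSP90B1 (chr12:103930160-103930459, plus strand) has ER elements at -194 and -89, the second reading on the opposite strand. CRELD2 (chr22:49918384-49918683, plus strand), which was lower, also has 1, at -80 on the opposite strand. HERPUD1 (chr16:56931892-56932191, plus strand) has the composite element at -176, CHAC1 (chr15:40953221-40953520, plus strand) at -209 and ASNS (chr7:97872359-97872658, minus strand) at -68, where the last reads on the strand of the gene and the others on the opposite strand.
HSPA5: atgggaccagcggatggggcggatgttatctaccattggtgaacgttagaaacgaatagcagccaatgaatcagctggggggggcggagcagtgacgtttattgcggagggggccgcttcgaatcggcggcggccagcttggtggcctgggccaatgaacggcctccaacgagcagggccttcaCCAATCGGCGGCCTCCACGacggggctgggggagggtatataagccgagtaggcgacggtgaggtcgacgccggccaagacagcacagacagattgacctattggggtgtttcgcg
HSP90B1: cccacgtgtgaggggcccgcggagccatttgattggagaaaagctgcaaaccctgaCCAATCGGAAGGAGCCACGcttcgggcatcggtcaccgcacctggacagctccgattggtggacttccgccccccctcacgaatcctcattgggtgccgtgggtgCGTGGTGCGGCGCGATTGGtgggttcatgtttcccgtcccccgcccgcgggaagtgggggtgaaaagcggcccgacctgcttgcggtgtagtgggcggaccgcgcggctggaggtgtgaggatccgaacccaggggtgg
CRELD2: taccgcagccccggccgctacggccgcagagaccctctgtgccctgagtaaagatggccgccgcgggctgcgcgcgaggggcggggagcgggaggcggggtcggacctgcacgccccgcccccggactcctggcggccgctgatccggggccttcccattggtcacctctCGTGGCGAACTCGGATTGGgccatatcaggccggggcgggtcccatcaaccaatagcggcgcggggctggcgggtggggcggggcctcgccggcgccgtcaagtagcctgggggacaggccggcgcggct
HERPUD1: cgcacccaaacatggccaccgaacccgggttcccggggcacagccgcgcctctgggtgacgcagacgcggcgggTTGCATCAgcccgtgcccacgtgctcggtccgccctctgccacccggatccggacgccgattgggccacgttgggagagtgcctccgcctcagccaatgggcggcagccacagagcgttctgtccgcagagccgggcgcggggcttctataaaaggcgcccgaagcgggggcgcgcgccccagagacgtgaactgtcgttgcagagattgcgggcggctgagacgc
CHAC1: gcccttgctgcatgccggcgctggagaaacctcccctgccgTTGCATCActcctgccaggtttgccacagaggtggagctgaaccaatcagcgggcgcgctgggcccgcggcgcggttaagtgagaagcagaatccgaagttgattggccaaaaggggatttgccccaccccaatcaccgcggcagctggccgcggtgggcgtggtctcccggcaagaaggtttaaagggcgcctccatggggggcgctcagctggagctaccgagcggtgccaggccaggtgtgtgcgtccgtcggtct
ASNS: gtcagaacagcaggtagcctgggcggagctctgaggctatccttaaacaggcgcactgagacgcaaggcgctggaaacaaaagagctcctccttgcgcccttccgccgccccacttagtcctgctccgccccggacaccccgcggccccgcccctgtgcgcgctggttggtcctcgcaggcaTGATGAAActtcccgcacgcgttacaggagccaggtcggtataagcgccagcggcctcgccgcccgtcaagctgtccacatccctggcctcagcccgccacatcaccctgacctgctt

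**Figure D2:**
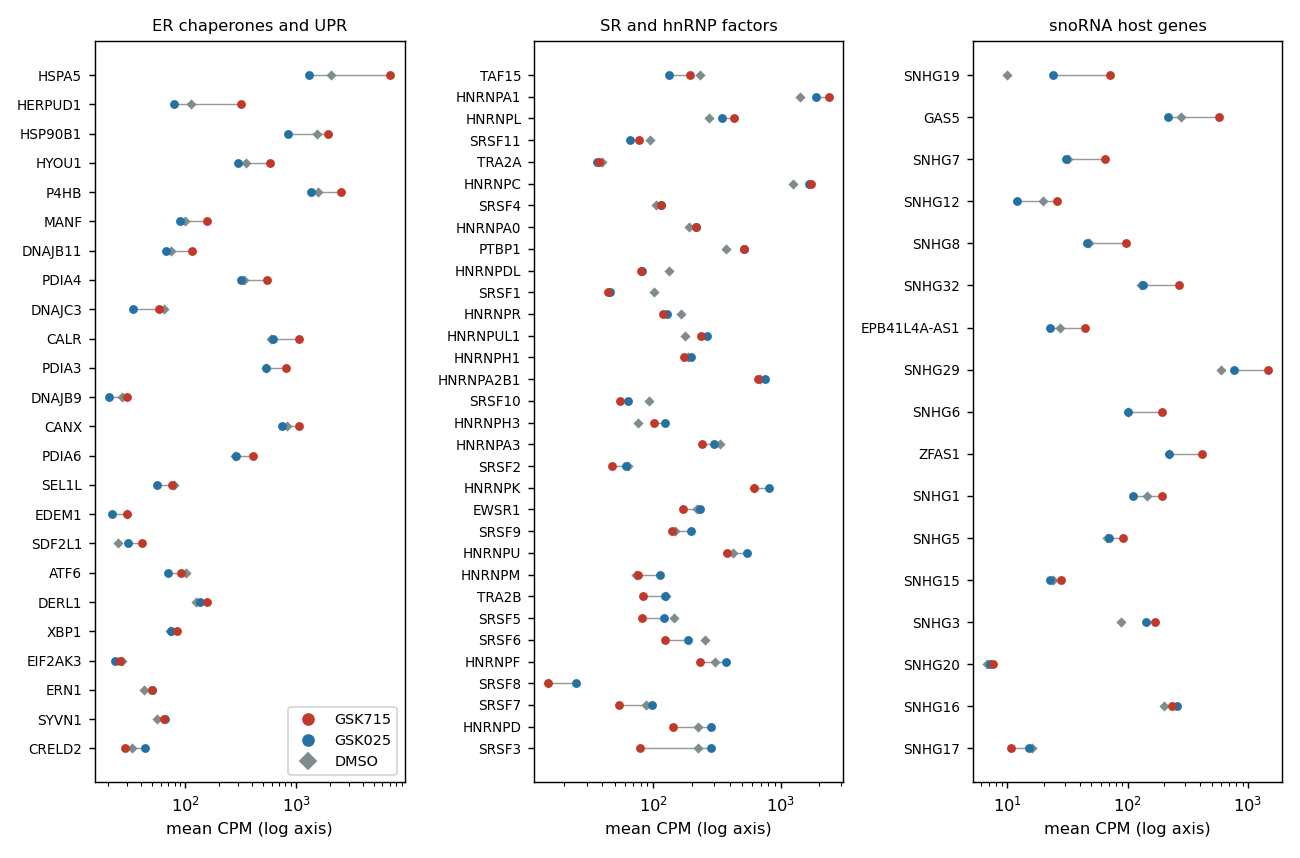
Mean CPM of 3 libraries on a log axis for the measured members of 3 lists, save 1 of the SR and hnRNP genes that is not drawn, with GSK715 in red, GSK025 in blue and DMSO as grey diamonds; grey lines join the inhibitor groups. Of the ER genes 20 of 24 were higher with GSK715 than with GSK025, of the SR and hnRNP genes 21 of 33 were lower, and of the small nucleolar RNA host genes 14 of 17 were higher. Of all genes 21.8% were higher and 22.5% lower.

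The ATF4 pathway and its amino acid response, through which cells adjust to ER stress or missing amino acids, followed the ER genes. Of 30 members 20 were higher with GSK715, 3 lower and 7 did not pass, with a median of 0.72. Of all genes 21.8% were higher and 22.5% lower. CHAC1, which degrades glutathione, stood at 15.9, 16.3 and 15.2 CPM with GSK715, against 2.01, 1.58 and 2.13 CPM with GSK025, an 8.29-fold difference (3.05 ± 0.15, adjusted p = 7.9e-09). Among the named genes only 2 of uncertain identity had a larger increase, and DMSO libraries held 3.24, 2.95 and 3.31 CPM. ATF3, a stress-induced transcription factor, stood at 201, 197 and 193 CPM with GSK715, against 52.6, 60.4 and 64.2 CPM with GSK025 (1.74 ± 0.06), with 60.8, 62.9 and 61.3 CPM with DMSO. The 3 groups thus had GSK715 apart, with GSK025 and DMSO close together. ASNS, the asparagine synthetase, averaged 615 ± 19.2 CPM with GSK715, 170.5 ± 3.48 CPM with GSK025 and 232 ± 0.139 CPM with DMSO (1.85 ± 0.04), and DDIT3 (CHOP), a death-promoting factor of the pathway, 93 ± 4.46 CPM with GSK715, 22.1 ± 2.26 CPM with GSK025 and 48.3 ± 1.08 CPM with DMSO (2.08 ± 0.07). They share 44.6% and 39.6% of their exonic bases with other genes and are less certain for that reason, as is DDIT4 with 41.2% (1.11 ± 0.04). The members that were lower changed little: the glutamine carrier SLC1A5 by -0.39 ± 0.04 with 23.8% exonic overlap, the cystathionine lyase CTH by -0.40 ± 0.10 and the serine phosphatase PSPH by -0.29 ± 0.08. Of 20 aminoacyl-tRNA synthetases, which load tRNAs, 12 were higher and 6 lower (median 0.23). Among the named members YARS1 was higher by 0.66 ± 0.05 and GARS1 by 0.50 ± 0.03, and EPRS1 was lower at -0.41 ± 0.06.

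Chaperones outside the ER mostly went the other way, by less than 2-fold. Of 18 heat shock chaperones 3 were higher and 11 lower with GSK715 (median -0.18), where 22.5% of all genes were lower. Of genes of at least 5 CPM, grouped by exonic length, 31.2% to 31.7% were lower. STIP1, which links Hsp70 and Hsp90, averaged 421 ± 9.27 CPM with GSK715, 629.6 ± 9.83 CPM with GSK025 and 433 ± 7.70 CPM with DMSO (-0.58 ± 0.03, adjusted p = 2.3e-08). The constitutive Hsp70 HSPA8 was lower at -0.51 ± 0.03 and the mitochondrial co-chaperonin HSPE1 by -0.59 ± 0.07, the last with 23.9% exonic overlap. DNAJB1, an inducible Hsp40, went the other way with 653, 623 and 631 CPM with GSK715, against 222, 232 and 231 CPM with GSK025 (1.48 ± 0.04), and the small chaperone HSPB1 averaged 356 ± 18.3 CPM with GSK715, 172 ± 5.84 CPM with GSK025 and 147 ± 3.41 CPM with DMSO (1.04 ± 0.05). Each of these had groups that did not overlap.

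Host genes of small nucleolar RNAs, many of whose spliced transcripts are degraded by nonsense-mediated decay, had the highest median of all lists with at least 9 measured members, 0.93. Of 17, 14 were higher with GSK715, 2 lower and 1 did not pass, where 21.8% of all genes were higher and 22.5% lower. GAS5 stood at 577, 559 and 575 CPM with GSK715, against 195, 214 and 246 CPM with GSK025 (1.39 ± 0.07, adjusted p = 4.5e-09). Every GSK715 library was more than 2-fold above every GSK025 library, and DMSO, at 279.6, 277 and 282 CPM, was between them. SNHG29 averaged 1476 ± 68.2 CPM with GSK715, 769.7 ± 35.5 CPM with GSK025 and 596 ± 23.6 CPM with DMSO (0.94 ± 0.05) and SNHG32 264 ± 4.98 CPM with GSK715, 134 ± 8.05 CPM with GSK025 and 129.5 ± 1.68 CPM with DMSO (0.98 ± 0.05), with 17.8% and 29.1% exonic overlap. Against DMSO the list's median was 0.93 with GSK715 and 0.01 with GSK025. The decay factors themselves were divided, with 5 of 15 higher (33.3%) and 6 lower (40.0%). Among genes of at least 5 CPM, grouped by exonic length, 30.9% to 32.4% were higher and 31.2% to 31.7% lower. The median of the decay factors was -0.01. It was -0.10 with library totals and 0.03 both with the GC trend of each library removed and without GSK025 replicate 3. Among them SMG9 was higher by 0.66 ± 0.07 and the exon junction protein MAGOHB lower at -1.47 ± 0.12 (4.77 ± 0.361 CPM with GSK715 and 13.2 ± 1.32 CPM with GSK025).

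Cytosolic ribosomal proteins, encoded by short and abundant transcripts, were higher together by a small amount. Where 21.8% of all genes were higher and 22.5% lower, 45 of the 52 measured were higher with GSK715, 0 lower and 7 did not pass. Their median was 0.29 and, for 46 of them, the 95% interval lay within 1.5-fold. Scaled by library totals, the median was 0.20. Their summed level was 104000 to 110000 CPM with GSK715, 81300 to 92000 CPM with GSK025 and 67100 to 68600 CPM with DMSO. RPS27 differed most among the named members at 1107, 1057 and 1067 CPM with GSK715, against 514, 569.7 and 670.0 CPM with GSK025 (0.88 ± 0.07, adjusted p = 5.1e-07), and RPS12 averaged 1774 ± 4.90 CPM with GSK715, 1197 ± 85.6 CPM with GSK025 and 1007 ± 22.8 CPM with DMSO (0.57 ± 0.04). Ribosomal protein genes have many near-identical pseudogene copies between which reads can be split, and of 1034 processed pseudogenes tested 103 were higher and 37 lower. Factors that build ribosomes in the nucleolus went the other way: of 30, 5 were higher and 20 lower (median -0.29). POLR1A, the largest subunit of RNA polymerase I, stood at 41.2, 40.5 and 44.6 CPM with GSK715, against 103, 95.4 and 80.3 CPM with GSK025 (-1.14 ± 0.08, adjusted p = 1.2e-07), without overlap of the groups. Nucleolin (NCL) was lower at -0.53 ± 0.03 and PES1 by -0.61 ± 0.04, while nucleophosmin (NPM1) was higher by 0.34 ± 0.04.

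Splicing factors of the SR and hnRNP families, which bind pre-mRNA and steer the choice of exons, were mostly lower. Of 33 SR and hnRNP genes 4 were higher, 21 lower and 8 did not pass, with a median of -0.28. Of all genes 21.8% were higher and 22.5% lower. SRSF3, a small SR protein that controls exon inclusion and mRNA export, stood at 76.2, 83.7 and 78 CPM with GSK715, against 279, 279 and 301 CPM with GSK025 (-1.85 ± 0.05, adjusted p = 2.3e-11). DMSO libraries, at 223, 227 and 220.5 CPM, lay between the inhibitors but nearer to GSK025, with log2 fold changes of -1.49 for GSK715 over DMSO and 0.36 for GSK025 over DMSO. HNRNPD (AUF1), which binds AU-rich mRNAs, was lower at -1.0 ± 0.04 (142 ± 5.68 CPM with GSK715 and 285 ± 5.18 CPM with GSK025). TAF15, an RNA-binding protein of the transcription machinery, was higher instead by 0.54 ± 0.03, with 196, 198 and 192 CPM with GSK715, against 133, 136 and 133 CPM with GSK025, and DMSO above both at 232, 236 and 235 CPM. HNRNPA1 was higher by 0.36 ± 0.03 and HNRNPL by 0.32 ± 0.04.

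The core of the spliceosome changed less. Of 33 Sm, LSm and core genes 5 were higher and 17 lower (median -0.12), and 27 had an interval within 1.5-fold. Of all genes 21.8% were higher and 22.5% lower. Among genes of at least 5 CPM, grouped by exonic length, 30.9% to 32.4% were higher and 31.2% to 31.7% lower. U2AF2, which recognizes the polypyrimidine tract, averaged 75 ± 3.90 CPM with GSK715, 122 ± 5.58 CPM with GSK025 and 61.7 ± 4.83 CPM with DMSO (-0.71 ± 0.06, adjusted p = 1.2e-06), and the U5 proteins SNRNP200 and EFTUD2 were lower at -0.57 ± 0.05 and -0.48 ± 0.04. LSM7 was higher by 0.55 ± 0.08 and LSM3 by 0.43 ± 0.08. Of 9 kinases that phosphorylate SR proteins 4 were higher and 3 lower: CLK1 stood at 21.6, 25.4 and 21.8 CPM with GSK715, against 11.4, 10.7 and 12.5 CPM with GSK025 (0.99 ± 0.10) and PRPF4B at 11.5, 13.2 and 13.3 CPM with GSK715, against 23.9, 25.7 and 23.9 CPM with GSK025 (-0.95 ± 0.08). CLK1 was nearer to DMSO with GSK715 (19.4, 20.5 and 20.9 CPM with DMSO), whereas PRPF4B, with 38, 34.6 and 37.6 CPM, was nearer to it with GSK025. Among 19 cleavage and polyadenylation factors 3 were higher and 13 lower (median -0.30). PCF11, which couples 3′ end formation to termination, was lower at -1.17 ± 0.08 (10.3 ± 0.408 CPM with GSK715, 23.1 ± 0.942 CPM with GSK025 and 27.1 ± 1.92 CPM with DMSO; 18.9% exonic overlap). CPSF1 and the poly(A)-binding protein PABPN1 were higher by 0.59 ± 0.05 and 0.72 ± 0.06, the last with 16.9% exonic overlap.

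**Figure D3:**
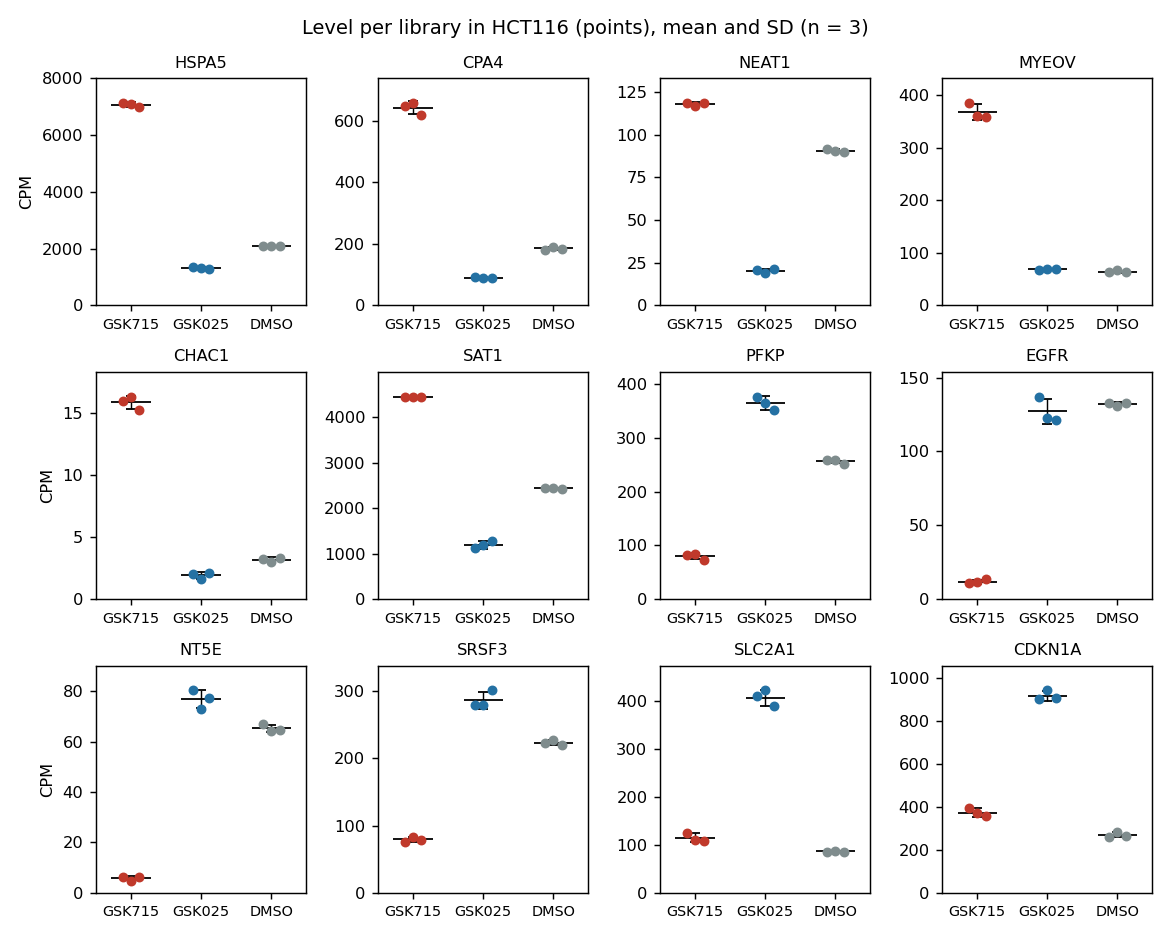
CPM per library (points), with the mean (bar) and SD of 3 libraries, for 12 named genes with GSK715, GSK025 and DMSO; each vertical axis starts at 0. No GSK715 library overlapped a GSK025 library for any of these genes; HSPA5, CPA4, NEAT1, CHAC1, SAT1, SRSF3 and PFKP had DMSO between the inhibitors, while for EGFR, NT5E and MYEOV the GSK025 libraries were nearer to DMSO than the GSK715 libraries were.

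Genes of the AP-1 family and other immediate early genes, which answer to growth factors and stress within minutes, were higher in 12 of 17 cases (70.6%). They were lower in 3 (17.6%), with a median of 0.60. Of all genes 21.8% were higher and 22.5% lower. Among genes of at least 5 CPM, grouped by exonic length, 30.9% to 32.4% were higher and 31.2% to 31.7% lower. JUN, the central AP-1 subunit, stood at 327, 311 and 314 CPM with GSK715, against 64.1, 65.1 and 60 CPM with GSK025 (2.33 ± 0.05, adjusted p = 6.4e-12). With DMSO at 67.8, 72.2 and 74.6 CPM, the GSK715 libraries stood apart from both other groups. JUNB averaged 454 ± 14.6 CPM with GSK715, 189.8 ± 4.57 CPM with GSK025 and 225 ± 5.35 CPM with DMSO (1.26 ± 0.04; 14.2% exonic overlap). EGR1 and EGR2, targets of serum response factor, were lower at -0.49 ± 0.04 and -0.76 ± 0.18, as was MYC by -0.24 ± 0.04. The matricellular genes CCN1 (CYR61) and CCN2 (CTGF), classical targets of the Hippo effector YAP, stood at 141, 141 and 143 CPM with GSK715, against 34.2, 31.6 and 35.1 CPM with GSK025 (2.08 ± 0.05) and at 91.6, 89.2 and 80.4 CPM with GSK715, against 21.3, 21.9 and 19.9 CPM with GSK025 (2.05 ± 0.08). Both had groups more than 3-fold apart in every pair of libraries. The YAP list was nevertheless divided, with 7 of 20 higher (35.0%) and 6 lower (30.0%), close to the shares among genes of at least 5 CPM. Its median was -0.02. Its sign was not stable: the median was -0.11 with library totals, 0.02 with the GC trend removed, and 0.08, 0.03 and 0.01 without GSK715 replicate 1, 2 or 3. It was 0.13 without GSK025 replicate 1 and 0.01 without replicate 2. NT5E (CD73; chr6:85449584-85495791), an ecto-enzyme that makes adenosine, was at the other end of it with 6.21, 4.80 and 6.12 CPM with GSK715, against 80.4, 73.2 and 77.5 CPM with GSK025, a 13.5-fold higher level with GSK025 (-3.75 ± 0.09, adjusted p = 1.1e-11). DMSO libraries, at 67, 64.3 and 64.8 CPM, were nearer to those with GSK025. MYOF (myoferlin) averaged 83.4 ± 0.984 CPM with GSK715, 226 ± 18.1 CPM with GSK025 and 222 ± 10.8 CPM with DMSO (-1.44 ± 0.06).

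The receptor of epidermal growth factor was among the genes with the largest decreases. EGFR (chr7:55019021-55211628) stood at 10.8, 11.2 and 13.4 CPM with GSK715, against 137, 122 and 122 CPM with GSK025 (-3.43 ± 0.08, adjusted p = 8.8e-12). GSK025 and DMSO libraries, the last at 133, 131 and 133 CPM, were at about the same level, and the GSK715 libraries were 10.8-fold below those with GSK025. ERBB2, its partner receptor, was lower at -0.44 ± 0.07 (69.2 ± 6.16 CPM with GSK715, 93.9 ± 5.16 CPM with GSK025 and 59.6 ± 2.49 CPM with DMSO). Among the ligands, EREG (epiregulin) stood at 58.6, 57.6 and 56 CPM with GSK715, against 114, 112 and 113 CPM with GSK025 (-0.98 ± 0.04) and was highest with DMSO (197, 200.5 and 208 CPM), while HBEGF was higher by 0.70 ± 0.09 (25.1 ± 0.618 CPM with GSK715, 15.4 ± 1.45 CPM with GSK025 and 11.8 ± 0.539 CPM with DMSO). Of the 11 receptors and ligands measured 1 was higher, 4 were lower and 6 did not pass. Of 17 genes induced by ERK signalling downstream of these receptors, 5 were higher (29.4%) and 7 lower (41.2%), with a median of 0.09. Of all genes 21.8% were higher and 22.5% lower. Among genes of at least 5 CPM, grouped by exonic length, 30.9% to 32.4% were higher and 31.2% to 31.7% lower. The phosphatases that switch ERK off were divided: DUSP5 averaged 923 ± 46.6 CPM with GSK715, 385 ± 12.1 CPM with GSK025 and 374 ± 3.20 CPM with DMSO (1.26 ± 0.04) and DUSP4 169.8 ± 2.78 CPM with GSK715, 398 ± 16.3 CPM with GSK025 and 220.1 ± 8.80 CPM with DMSO (-1.23 ± 0.04). MYEOV stood at 385, 359.5 and 358 CPM with GSK715, against 66.8, 69 and 68.5 CPM with GSK025 (2.43 ± 0.05, adjusted p = 3.0e-12), with 62.6, 67.1 and 62.4 CPM with DMSO, and the ETS factor ETV1 was lower at -1.16 ± 0.08.

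Genes of inflammation and antigen presentation changed in both directions, beside 21.8% of all genes that were higher and 22.5% that were lower. Genes of at least 5 CPM passed more often. When these were grouped by exonic length, 30.9% to 32.4% of a group were higher and 31.2% to 31.7% lower. Of 22 NF-kB target and inflammatory genes 10 were higher (45.5%) and 5 lower (22.7%), with a median of 0.25 that was 0.43 without GSK025 replicate 2. CXCL8 (interleukin-8) stood at 19.1, 16.5 and 20.6 CPM with GSK715, against 3.57, 3.49 and 4.69 CPM with GSK025 (2.26 ± 0.14, adjusted p = 5.8e-08), with DMSO in between at 9.41, 10.7 and 9.74 CPM. TNFAIP3 (A20), a brake on NF-kB, was higher by 0.99 ± 0.11, and the adhesion molecule ICAM1 lower at -0.95 ± 0.14, with 23.6% exonic overlap. Of 36 interferon-stimulated genes 12 were higher (33.3%), 9 lower (25.0%) and 15 did not pass (median 0.40). Their share of higher genes was thus close to that among genes of at least 5 CPM. IRF7, the transcription factor of the interferon response, stood at 40.3, 40.2 and 39.6 CPM with GSK715, against 8.82, 9.80 and 10.4 CPM with GSK025 (2.05 ± 0.08, adjusted p = 1.1e-09), without overlap, whereas IFITM1, an antiviral membrane protein, averaged 22.8 ± 0.280 CPM with GSK715, 42.4 ± 4.29 CPM with GSK025 and 25.1 ± 0.933 CPM with DMSO (-0.89 ± 0.08; 32.5% exonic overlap). Of 16 genes of class I presentation 7 were higher (43.8%) and 2 lower (12.5%). HLA-C averaged 654 ± 30 CPM with GSK715, 422 ± 8.72 CPM with GSK025 and 395 ± 3.34 CPM with DMSO (0.63 ± 0.04) and HLA-B 503 ± 9.15 CPM with GSK715, 257 ± 8.08 CPM with GSK025 and 262 ± 2.52 CPM with DMSO (0.97 ± 0.04). The class I genes resemble each other closely, so reads can be split between them, and HLA-B also has 18.9% exonic overlap. The peptide transporter TAP1 was lower at -0.31 ± 0.06.

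Epithelial genes changed in their composition. Of 11 keratins 5 were higher and 5 lower (45.5% each), where 21.8% of all genes were higher and 22.5% lower. Among genes of at least 5 CPM, grouped by exonic length, 30.9% to 32.4% were higher and 31.2% to 31.7% lower. KRT19, a keratin of simple epithelia, stood at 1154, 1103 and 1047 CPM with GSK715, against 2090.0, 2119 and 2026 CPM with GSK025 (-0.92 ± 0.04, adjusted p = 1.2e-09). Its groups did not overlap, and DMSO was at 1320.0, 1362 and 1344 CPM. KRT18 was lower at -0.66 ± 0.04, with 16.3% exonic overlap, and KRT23 by -2.68 ± 0.13 (2.48 ± 0.240 CPM with GSK715 and 16 ± 0.888 CPM with GSK025). KRT15, a basal keratin, averaged 125 ± 5.42 CPM with GSK715, 34.6 ± 0.777 CPM with GSK025 and 39.3 ± 2.59 CPM with DMSO (1.85 ± 0.06) and KRT80 42 ± 3.27 CPM with GSK715, 15.1 ± 1.09 CPM with GSK025 and 7.83 ± 0.452 CPM with DMSO (1.48 ± 0.09). The claudins of tight junctions were divided too, with CLDN4 higher by 0.75 ± 0.04 and CLDN7 by 1.45 ± 0.05 (12.3% exonic overlap), and CLDN3 lower at -1.16 ± 0.09. Of 24 Wnt target and crypt genes only 16 were measured, and LGR5, ASCL2, OLFM4 and SMOC2 were among those that were not. Of the 16, 12 were lower and 2 higher (median -0.34). BMP4, a signal that opposes stemness in the colon, stood at 46, 48.8 and 48.8 CPM with GSK715, against 148, 141 and 151 CPM with GSK025 (-1.61 ± 0.05, adjusted p = 1.2e-10), with 73.9, 72.6 and 68.3 CPM with DMSO. CD44 averaged 362 ± 8.01 CPM with GSK715, 606 ± 7.38 CPM with GSK025 and 696 ± 13.3 CPM with DMSO (-0.74 ± 0.03), and the Wnt inhibitor DKK1 was higher by 0.33 ± 0.04. Of 25 genes of mesenchymal transition and matrix 8 were higher (32.0%) and 2 lower (8.0%). The higher share was close to that among genes of at least 5 CPM. At least 2-fold, 1 was higher and 1 lower. The laminin chain LAMB3 at 0.99 ± 0.05 and fibronectin (FN1) at 0.80 ± 0.06 were among the higher. ACTA2 (smooth muscle actin), in the list of stromal markers, averaged 5.58 ± 0.930 CPM with GSK715, 38.4 ± 2.61 CPM with GSK025 and 9.76 ± 1.04 CPM with DMSO (-2.78 ± 0.13; 30.1% exonic overlap), and the share of other cell types in this was not tested. Markers of mature colon cells were scarce: 8 of 19 absorptive, 8 of 15 goblet and 7 of 12 enteroendocrine markers were measured. Of the absorptive markers 1 was higher and 2 were lower, of the goblet markers 1 was higher and 0 were lower, and of the enteroendocrine markers 1 was higher and 1 lower, where 21.8% of all genes were higher and 22.5% lower.

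Target genes of p53 were lower with GSK715 in 19 of 30 cases (63.3%) and higher in 8 (26.7%), with a median of -0.39. Of all genes 22.5% were lower and 21.8% higher. Among genes of at least 5 CPM, grouped by exonic length, 31.2% to 31.7% were lower and 30.9% to 32.4% higher. CDKN1A (p21), the inhibitor of cyclin-dependent kinases, stood at 395, 371 and 356 CPM with GSK715, against 903, 944 and 908 CPM with GSK025 (-1.30 ± 0.05, adjusted p = 4.1e-10). GSK025 libraries thus stood more than 2-fold above those with GSK715, which in turn were above DMSO, at 262, 285 and 265 CPM. GDF15, a stress cytokine, averaged 229 ± 10.2 CPM with GSK715, 351 ± 13.5 CPM with GSK025 and 116 ± 4.61 CPM with DMSO (-0.62 ± 0.05), in the same order. The repair factor XPC was lower at -1.15 ± 0.04 with 30.4% exonic overlap. Among those that were higher, the mitochondrial ferredoxin reductase FDXR stood at 195, 185 and 176 CPM with GSK715, against 73.7, 75.5 and 70.1 CPM with GSK025 (1.34 ± 0.05) and GADD45B averaged 93.1 ± 2.60 CPM with GSK715, 26.9 ± 1.0 CPM with GSK025 and 33.6 ± 3.03 CPM with DMSO (1.79 ± 0.07), while PLK3 was higher by 1.09 ± 0.05. Against DMSO the list had medians of 0.36 with GSK715 and 0.51 with GSK025.

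Cell cycle genes were divided, beside 21.8% of all genes that were higher and 22.5% that were lower. Of genes of at least 5 CPM, grouped by exonic length, 30.9% to 32.4% were higher and 31.2% to 31.7% lower. Lower calls outnumbered higher ones among mitotic and replication genes, and higher calls outnumbered lower ones among those of recombination and G1 control. For G1 control the shares were 33.3% higher and 22.2% lower. Of 34 mitotic genes 5 were higher, 14 lower and 15 did not pass, with a median of -0.17, beside medians of -0.48 for GSK715 and -0.33 for GSK025 against DMSO. KIF18A, a motor that dampens chromosome movements, stood at 4.28, 4.36 and 4.97 CPM with GSK715, against 13.5, 13.1 and 14 CPM with GSK025 (-1.58 ± 0.11, adjusted p = 1.4e-07), with DMSO highest at 30.1, 23.9 and 26.9 CPM. CCNB1 (cyclin B1) averaged 68.1 ± 3.82 CPM with GSK715, 118 ± 5.41 CPM with GSK025 and 115 ± 0.831 CPM with DMSO (-0.80 ± 0.05), and topoisomerase TOP2A was higher by 0.66 ± 0.07. Of 36 replication genes 7 were higher and 16 lower (median -0.19). LIG1, which joins Okazaki fragments, stood at 22.5, 19.2 and 19.3 CPM with GSK715, against 56.4, 59.1 and 55.6 CPM with GSK025 (-1.49 ± 0.07, adjusted p = 3.7e-09), whereas CDC45, part of the replicative helicase, was higher by 1.04 ± 0.12 (15.2 ± 1.30 CPM with GSK715, 7.37 ± 0.0888 CPM with GSK025 and 9.38 ± 1.22 CPM with DMSO). Of 31 genes of homologous recombination and the Fanconi pathway 13 were higher and 6 lower (median 0.18), and against DMSO their medians were -0.53 with GSK715 and -0.74 with GSK025. FANCL, the ubiquitin ligase of the Fanconi complex, stood at 10.9, 7.42 and 10.8 CPM with GSK715, against 2.16, 2.78 and 2.10 CPM with GSK025 (2.05 ± 0.20), but has 19.7% exonic overlap. The checkpoint kinase ATR averaged 9.0 ± 0.572 CPM with GSK715, 5.68 ± 0.456 CPM with GSK025 and 26.1 ± 3.79 CPM with DMSO (0.67 ± 0.12; 16.4% exonic overlap). Of 18 genes of G1 control 6 were higher and 4 lower, with RB1 lower at -0.82 ± 0.09 (12 ± 1.59 CPM with GSK715, 21.1 ± 1.06 CPM with GSK025 and 39.7 ± 1.08 CPM with DMSO) and the inhibitor CDKN1C higher by 0.71 ± 0.08. Of 9 replication-dependent histones 6 were lower and 0 higher, with H1-2 lower at -1.23 ± 0.08 and H2BC5 by -2.69 ± 0.19. These transcripts mostly lack poly(A) tails, and close copies make their counts uncertain in poly(A)-enriched libraries.

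**Figure D4:**
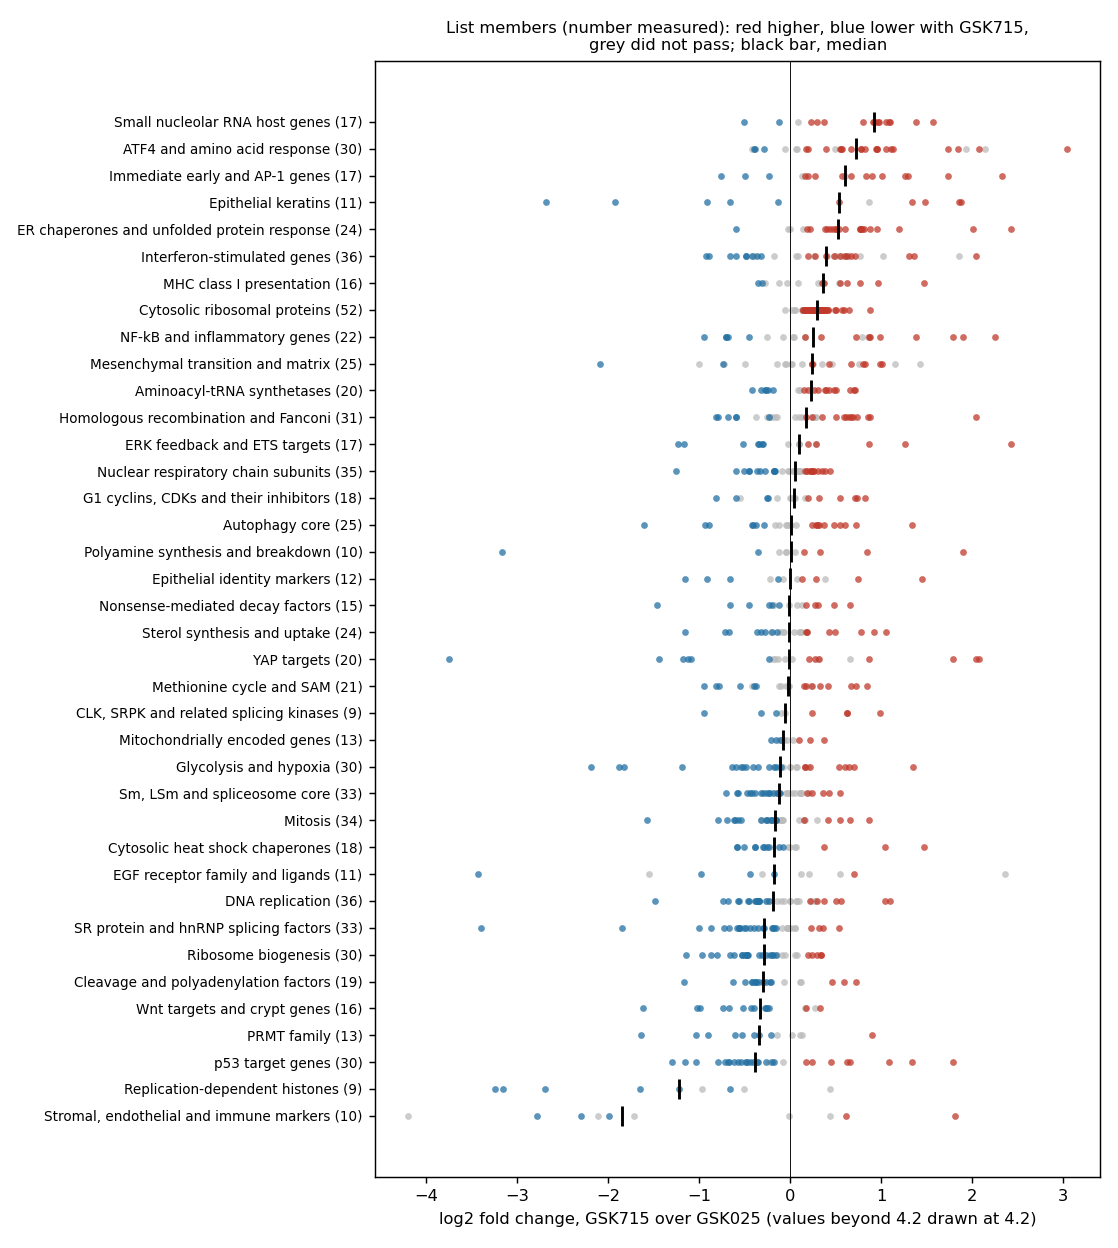
Log2 fold changes of GSK715 over GSK025 (horizontal) for every measured member of the lists with at least 9 measured genes (numbers in brackets), ordered by their median (black bar). Members that were higher with GSK715 are red, those lower blue and those that did not pass grey; small nucleolar RNA host genes have the highest median at 0.93, and stromal, endothelial and immune markers, most of them near 0 CPM, the lowest at -1.85 (-0.86 when only the 6 inhibitor libraries were fitted, where replication-dependent histones, at -1.22, lay lower).

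Metabolic genes showed large differences at single steps. Of 30 genes of glycolysis and hypoxia 8 were higher and 15 lower (median -0.11). SLC2A1 (GLUT1), the main glucose carrier of growing cells, stood at 125, 109.7 and 109 CPM with GSK715, against 409, 422 and 389 CPM with GSK025 (-1.83 ± 0.06, adjusted p = 1.1e-10). DMSO libraries, at 85.8, 87.8 and 86 CPM, were below both inhibitors. PFKP, the platelet form of phosphofructokinase, stood at 82.8, 83 and 73.4 CPM with GSK715, against 377, 365 and 351 CPM with GSK025 (-2.19 ± 0.05), with DMSO between at 259, 258 and 252 CPM. ENO1 averaged 3125 ± 152 CPM with GSK715, 4878 ± 138 CPM with GSK025 and 3351 ± 7.05 CPM with DMSO (-0.64 ± 0.04), while its neuronal form ENO2 was higher by 0.70 ± 0.05, and the hypoxia-induced peptide gene ADM by 1.35 ± 0.09. In polyamine metabolism, SAT1, which acetylates spermidine and spermine for export, stood at 4455, 4448 and 4451 CPM with GSK715, against 1114, 1183 and 1275 CPM with GSK025 (1.90 ± 0.04, adjusted p = 6.4e-12). With DMSO at 2452, 2438 and 2431 CPM, it lay on opposite sides of the vehicle level. AMD1, which supplies decarboxylated S-adenosylmethionine, averaged 203 ± 11.6 CPM with GSK715, 113 ± 2.34 CPM with GSK025 and 229 ± 8.57 CPM with DMSO (0.85 ± 0.05), and the synthetase of S-adenosylmethionine MAT2A 144 ± 2.32 CPM with GSK715, 108 ± 3.51 CPM with GSK025 and 280.1 ± 2.21 CPM with DMSO (0.42 ± 0.04; 12.4% exonic overlap). MTR, which remakes methionine, was lower at -0.95 ± 0.08 and the serine hydroxymethyltransferase SHMT1 by -0.82 ± 0.08. In sterol synthesis 7 of 24 genes were higher (29.2%) and 8 lower (33.3%), close to the shares among genes of at least 5 CPM. Among them were MVD at 1.06 ± 0.05 and the neighbouring step PMVK at -1.15 ± 0.08. MVD averaged 61.7 ± 1.75 CPM with GSK715, 29.6 ± 1.06 CPM with GSK025 and 58.7 ± 0.127 CPM with DMSO, and PMVK 12.4 ± 0.915 CPM with GSK715, 27.7 ± 1.11 CPM with GSK025 and 22.2 ± 1.33 CPM with DMSO.

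Mitochondrial transcripts were close in both inhibitor groups. All 13 mitochondrially encoded genes measured had an interval within 1.5-fold between the inhibitors (median -0.08), while against DMSO their medians were -0.69 with GSK715 and -0.72 with GSK025. MT-ND6 differed most in the higher direction, at 0.37 ± 0.04, and MT-CYB in the lower, at -0.21 ± 0.03. Of all genes 21.8% were higher and 22.5% lower. Among genes of at least 5 CPM, grouped by exonic length, 30.9% to 32.4% were higher and 31.2% to 31.7% lower. Close to the latter shares, 11 of 35 nuclear subunits of the respiratory chain were higher (31.4%) and 12 lower (34.3%), and 31 had an interval within 1.5-fold. NDUFB8, at -1.26 ± 0.08 (41.8 ± 5.01 CPM with GSK715 and 99.8 ± 6.80 CPM with GSK025), stood out from them but has 48.5% exonic overlap. In autophagy, where 10 of 25 genes were higher and 7 lower, the autophagosome protein MAP1LC3B stood at 485, 478 and 449 CPM with GSK715, against 182, 189.6 and 188 CPM with GSK025 (1.34 ± 0.04, adjusted p = 1.1e-10). ATG2B, a lipid transfer protein, was lower at -1.61 ± 0.23 at low levels (1.16 ± 0.388 CPM with GSK715, 3.56 ± 0.439 CPM with GSK025 and 10.7 ± 0.497 CPM with DMSO). Of 6 PI3K-related kinases ATR, given above, was higher and 3 were lower by less than 1.5-fold: PRKDC at -0.33 ± 0.07, TRRAP at -0.32 ± 0.06 and MTOR at -0.14 ± 0.05. The call of MTOR (adjusted p = 0.041) did not hold without GSK715 replicate 1 (0.088) or 3 (0.14), GSK025 replicate 1 (0.22) or 2 (0.091) or any 1 DMSO library (0.056 to 0.058).

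The other genes with the largest increases were of mixed function. CPA4 (chr7:130293134-130324180), a secreted carboxypeptidase, stood at 649, 658 and 618 CPM with GSK715, against 90.3, 87 and 88.3 CPM with GSK025 (2.86 ± 0.04, adjusted p = 1.3e-13). Its GSK715 libraries were 7.25-fold above those with GSK025, and DMSO lay between at 179.8, 191 and 184 CPM. NEAT1 (chr11:65422774-65445540), the long noncoding RNA around which paraspeckles form, stood at 118, 117 and 119 CPM with GSK715, against 20.4, 18.7 and 21.4 CPM with GSK025 (2.55 ± 0.05, adjusted p = 5.4e-12). In this case it was the GSK025 libraries that stood apart, since DMSO libraries held 91.6, 90.3 and 90.2 CPM. RAB26, a small GTPase of vesicle transport, averaged 37.8 ± 2.32 CPM with GSK715, 7.10 ± 0.544 CPM with GSK025 and 11.1 ± 0.897 CPM with DMSO (2.41 ± 0.10), and KRTAP2-3, a keratin-associated protein gene, 66.7 ± 1.70 CPM with GSK715, 13.2 ± 0.406 CPM with GSK025 and 10.8 ± 1.20 CPM with DMSO (2.34 ± 0.08). At lower levels, the atypical kinase MAPK15 was higher by 2.49 ± 0.14 (10.9 ± 0.450 CPM with GSK715 and 1.94 ± 0.113 CPM with GSK025), the collagen chain COL11A2 by 2.36 ± 0.17 (15 ± 2.27 CPM with GSK715 and 2.91 ± 0.280 CPM with GSK025) and the nuclear envelope protein SUN3 by 2.34 ± 0.21 (8.47 ± 1.25 CPM with GSK715 and 1.67 ± 0.329 CPM with GSK025). The 2 largest values belong to uncertain genes: the readthrough gene FAM47E-STBD1, with 19.6, 1.94 and 23.1 CPM with GSK715, against 0.494, 0.875 and 0.245 CPM with GSK025 and 95.1% exonic overlap, and the pseudogene FAUP4, with 20.3, 18.5 and 17.4 CPM with GSK715, against 2.20, 2.41 and 1.10 CPM with GSK025.

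The other genes with the largest decreases included several genes of low level with GSK715. LMF1, which matures lipases in the ER, had the lowest log2 fold change among the named genes and stood at 0.966, 1.06 and 0.466 CPM with GSK715, against 12.1, 14.3 and 14.7 CPM with GSK025 (-4.04 ± 0.24, adjusted p = 3.1e-08). DMSO libraries held 10.6, 10.9 and 9.65 CPM, so the GSK715 group was the one apart. WWC3, a relative of the Hippo protein KIBRA, averaged 1.99 ± 0.470 CPM with GSK715, 23 ± 0.867 CPM with GSK025 and 13.6 ± 0.716 CPM with DMSO (-3.53 ± 0.15), and HDAC4, a class IIa histone deacetylase, 2.23 ± 0.690 CPM with GSK715, 21.1 ± 0.953 CPM with GSK025 and 13.7 ± 0.842 CPM with DMSO (-3.24 ± 0.18). HADH, an enzyme of mitochondrial fatty acid oxidation, stood at 7.53, 5.81 and 6.74 CPM with GSK715, against 54.3, 53.3 and 55.8 CPM with GSK025 (-3.02 ± 0.09), with 38, 39.9 and 35.2 CPM with DMSO. It was lower in every GSK715 library than in any library of the other groups. SRD5A3, a reductase needed to make dolichol for glycosylation, was lower at -3.32 ± 0.14 (1.44 ± 0.145 CPM with GSK715 and 14.4 ± 0.489 CPM with GSK025), the synaptic vesicle gene SYN2 by -3.07 ± 0.17 (2.60 ± 0.692 CPM with GSK715 and 21.9 ± 1.13 CPM with GSK025) and the microRNA host gene MIR3667HG by -3.40 ± 0.12 (2.17 ± 0.361 CPM with GSK715 and 22.8 ± 1.18 CPM with GSK025). CCDC92 and OPN3, at -3.60 ± 0.21 and -3.09 ± 0.20, share 12.3% and 55.5% of their exonic bases with other genes.

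For many genes a difference of 1.5-fold between the inhibitors lay outside the 95% interval: for 6724 of all genes tested (34.0%), of which 2980 passed the test with a small difference, and for 6543 of the 11044 genes of at least 5 CPM (59.2%). The most abundant of these that also differed at least 2-fold from DMSO in the same direction with both inhibitors was ATG12, a ubiquitin-like protein of autophagy, at 259.5, 269.6 and 271 CPM with GSK715, against 266, 271 and 287 CPM with GSK025, and 581, 574 and 584 CPM with DMSO. The interval between the inhibitors was -0.13 to 0.04 on the log2 scale (adjusted p = 0.38). UHMK1, a kinase of splicing factors, averaged 96.6 ± 8.43 CPM with GSK715, 91.6 ± 7.23 CPM with GSK025 and 210.3 ± 5.04 CPM with DMSO, with an interval of -0.07 to 0.22. ARHGAP29, a GTPase-activating protein, and the cation transporter ATP13A3 passed with small differences of 0.23 ± 0.05 and 0.30 ± 0.05, at 207 ± 10.9 CPM with GSK715, 177 ± 6.68 CPM with GSK025 and 437 ± 17.9 CPM with DMSO and 95.7 ± 5.97 CPM with GSK715, 77.6 ± 1.67 CPM with GSK025 and 194 ± 9.72 CPM with DMSO. The members of this comparison were chosen after their DMSO values, which both differences share.

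Features of the transcripts were set beside the differences as a description across genes, which are not independent replicates. Over 11031 genes of at least 5 CPM, the rank correlation (Spearman) of the log2 fold change between the inhibitors with exonic length was 0.00933. Among the 2758 longest of these genes, with a median of 9906 exonic bases, 32.4% were higher and 31.5% lower with GSK715, and among the 2760 shortest, with 2337 bases, 30.9% and 31.2%. With the GC content of the longest transcript the correlation was -0.142 over 10539 protein-coding genes. The 2635 genes with the least GC (median 39.2%) were higher in 37.1% of cases and lower in 22.5%, and the 2635 with the most (60.8%) higher in 27.7% and lower in 38.3%, with median log2 fold changes of 0.10 and -0.09. Against DMSO the correlations were larger: with exonic length -0.292 for GSK715 and -0.3 for GSK025, and with GC content 0.442 for GSK715 and 0.588 for GSK025. Their part in the list medians against DMSO was not tested. After the GC trend of each library was removed, an alternative chosen after the data were seen, 4362 genes were higher and 4453 lower. Of 14703 protein-coding genes 25.8% were higher and 26.9% lower, and of 1037 long intergenic noncoding RNAs 10.2% and 14.9%.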

How the data were processed

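The deposited HCT116 table holds raw counts per gene, whole numbers in every column. The submitters' processing notes name cutadapt, HISAT2, StringTie, DESeq2, minimap2, Salmon and GRCh38; the step of each, the versions, the annotation release and the strand are not given in the sources used here. Of 60612 gene IDs in the authors' counts, 60588 matched a symbol and 58394 matched GENCODE 29, which gave coordinates and exonic overlaps; genes sharing at least 10% of their exonic bases are called uncertain.

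Genes were filtered with filterByExpr (minimum count 10, minimum total 15), scaled by TMM and tested in R 4.3.3 with edgeR 4.0.16 (limma 3.58.1), in 1 quasi-likelihood fit of 9 libraries, at a Benjamini-Hochberg adjusted p of 0.05. SEs are the log2 fold change over the root of F, and 95% intervals use its t quantile. DESeq2 1.42.0 was an alternative. Replicates differed by more than sampling noise.

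The comparison, the 42 gene lists and the tests were chosen with earlier results of these data known. Named genes were the 12 largest increases and decreases with a mean of at least 5 CPM and non-overlapping groups, up to 3 called members per list and direction with the smallest adjusted p, the PRMT family, and 4 abundant genes with a bounded difference. Sequences are from RefSeq. Some genes that this rule names are not reported here.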

Additional observations from a re-analysis of the deposited data

How the results depend on the processing

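Against a 1.5-fold difference (edgeR's glmTreat) the genes higher with GSK715 than with GSK025 numbered 970, those lower 1041 and those at least 2-fold higher 654; against DMSO, 747 were higher and 1628 lower with GSK715, and 360 higher and 1422 lower with GSK025. Under the other alternatives (RLE size factors, library totals, no count filter, DESeq2, only the 6 inhibitor libraries, no mitochondrially encoded genes, the GC trend removed) these counts stayed within 1.5 times, for example 4660 higher and 4565 lower with DESeq2 and 3474 and 5406 with library totals. Leaving out each library in turn gave 3860 to 4195 genes higher and 3918 to 4278 lower. The replicate numbers share only a number: same-numbered GSK715 and GSK025 libraries had correlations of -0.0577, -0.126 and -0.00372. A fit with the replicate block called 4151 higher and 4260 lower.

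Of 239 named genes called between the inhibitors, 120 did not pass against a 1.5-fold difference and 13 lost the call under at least 1 other alternative, while 4 others gained one; leaving out a library cost 2 to 7 calls. ATG12 (adjusted p = 0.0013) and CARM1 (0.011) passed with the GC trend removed, ATG12 also with library totals (0.010), where ARHGAP29 (0.054) did not. The direction between the inhibitors changed for no named gene that was called in the main fit or under the alternative. A change of sign in genes called in neither was not counted. Against DMSO, removing the GC trend turned the log2 fold change of DNAJB4 (0.33), PAPOLA (0.14), STARD4 (0.29) and AMD1 (0.34) with GSK715, and of CPSF6 (0.35), NDUFV1 (-0.14), IER3 (-0.12) and SQSTM1 (-0.14) with GSK025; the cause was not tested. Each library held at least 64.6 M counts.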
